A study of Mus musculus with 2197 samples.

Results

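The genes described here are the semaphorins and plexins, the ephrins and Eph receptors, the Slits and Robos, and the netrins and Unc5 receptors, the families of secreted and membrane proteins first known for steering growing axons. Members were all genes whose symbol began with Sema3 to Sema7, Plxna to Plxnd, Epha, Ephb, Efna, Efnb, Slit, Robo, Ntn or Unc5 followed by a family letter or number. The rule found 70 of the 40824 genes of the plate-based table, namely 20 semaphorins, 12 plexins, 8 ephrins, 14 Eph receptors, 3 Slits, 4 Robos, 4 netrins and 5 Unc5 genes. Plxna4os1, Plxna4os2 and Plxna4os3, antisense RNAs of the Plxna4 locus, and Unc5cl, which is not a netrin receptor, entered by their symbols alone. In the droplet data 69 of these symbols were present. No measured value was used to choose the genes.

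The study followed single cells of the embryonic mouse pancreas as they turned into endocrine, duct and exocrine cells. Sorted single cells were sequenced by Smart-seq2, a full-length method without molecular identifiers, which gave 2195 cells in 29 groups and 82 numbered sets of 6 to 71 cells, and whole pancreas of E14.5 was profiled in 2 droplet libraries. The sorts were Pdx1-GFP+ transgenic cells of E9.5, E10.5 and E11.5 with Pdx1-GFPhigh cells of E10.5 (early buds), Pdx1-Cre;Rosa-RFP+ lineage cells taken daily between E10.5 and E15.5, Ptf1a-CreER;Rosa-RFP+ and Ngn3-Cre;Rosa-RFP+ lineage cells of E11.5, Ngn3-GFP+ cells of E10.5, E12.5, E16.5 and E17.5, Ngn3-GFPlow and Ngn3-GFPhigh cells of E13.5, E14.5 and E15.5, Sox9-CreER;Rosa-RFP+ cells of E16.5 and E17.5, Ins1-RFP+ cells of E15.5 (beta) and Gcg-GFP+ cells of E15.5 and E17.5 (alpha). Explants of E13.0 dorsal pancreas from Ins1-RFP transgenic mice were cultured for 2 days with or without 10 µM U0126, an inhibitor of the kinases MEK1 and MEK2, and their Ins1-RFP+ cells were sorted. Both Ngn3-GFP sorts carried the same knock-in reporter allele, so no group without it was part of their comparison, and GFP protein can outlast the Neurog3 transcript. The labels give no inducer time for the CreER lines and do not say what a set is, so a p-value here is set against spread between sets that could be technical.

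In these families a ligand on or from 1 cell changes the cytoskeleton and adhesion of another. Semaphorins signal through plexins, with neuropilins as co-receptors of the secreted class, ephrins and Eph receptors signal in both directions across a cell contact, Slits bind Robos, and netrins bind Dcc, neogenin and Unc5 receptors. Outside the nervous system they are known for shaping blood vessels and branching epithelia. In the pancreas, EphB signalling is known for branching of the bud, and Robo receptors are known for keeping endocrine cells in islets and for pancreatic identity of the early bud. Neurog3, the transcription factor that starts endocrine differentiation, is read here through the Ngn3-GFP reporter, and cells that express it leave the duct-like trunk epithelium.

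The windows that hold the 250 bases before the RefSeq start of 3 members with large differences between the Ngn3-GFP sorts are shown first, because Neurog3 is a basic helix-loop-helix factor and such factors bind E-boxes. They were Sema3g at chr14:31217623-31217872, Unc5a at chr13:54949161-54949410 and Ephb4 at chr5:137349859-137350108, all on the plus strand of GRCm38.p6. Capitals mark matches to CANNTG, searched on both strands, with N standing for any base.
Sema3g: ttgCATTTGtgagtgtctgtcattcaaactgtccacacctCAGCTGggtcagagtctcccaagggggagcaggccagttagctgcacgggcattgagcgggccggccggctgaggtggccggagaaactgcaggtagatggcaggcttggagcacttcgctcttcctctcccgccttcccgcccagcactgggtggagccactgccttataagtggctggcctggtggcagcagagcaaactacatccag
Unc5a: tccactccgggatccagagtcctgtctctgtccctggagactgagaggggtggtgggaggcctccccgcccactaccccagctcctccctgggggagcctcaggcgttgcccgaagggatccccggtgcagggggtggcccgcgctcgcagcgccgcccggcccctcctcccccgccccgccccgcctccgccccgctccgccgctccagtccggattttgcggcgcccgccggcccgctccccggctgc
Ephb4: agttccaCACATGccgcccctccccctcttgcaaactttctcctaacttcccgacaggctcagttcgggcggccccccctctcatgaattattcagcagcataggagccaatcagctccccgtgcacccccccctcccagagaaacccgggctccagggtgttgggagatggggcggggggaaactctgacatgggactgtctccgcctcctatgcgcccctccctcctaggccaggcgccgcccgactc
Sema3g had 2 matches, Unc5a had 0 and Ephb4 had 1. Of the member symbols, 58 matched the RefSeq table, with 74 windows, and Slit1 was not among them. CANNTG was present in 66.2% of all 32851 windows of that table, in 37 of the 74 member windows, in 4 of the 9 windows of members that were higher in Ngn3-GFPhigh cells and in 6 of the 10 windows of members that were lower. CAGATG, a narrower E-box that CANNTG contains, was present in 14.4% of all windows, in 5 of the member windows, in 0 of those 9 and in 2 of those 10. These are matches of letters in a window and say nothing of binding.

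Each cell had 176524 to 2118160 gene counts (median 809389), and each set 2838610 to 79253014. Values are CPM, counts scaled to a common total, of a set's summed counts, and read counts include PCR copies. Reporter genes were compared with the labels first. Neurog3 was at 410 to 1112 CPM in the Ngn3-GFPhigh sets and at 14.1 to 568 CPM in the Ngn3-GFPlow sets. Ins2 was at 60220 to 63690 CPM in the Ins1-RFP+ sets and Gcg at 52360 to 57360 CPM in the E15.5 Gcg-GFP+ sets, each against under 100 CPM in the other sort. A pair of the 10 Ngn3-GFPlow sets, sets 2 and 3 of E13.5, stood apart, with Gcg at 23010 and 42480 CPM and Sox9, a trunk and duct factor, at 105 and 5.04 CPM. The other Ngn3-GFPlow sets had Gcg at 0.0799 to 6387 CPM and Sox9 at 290 to 1147 CPM. Cells with at least 4 of 8 leukocyte markers at 100 CPM or more made up 51 of 118 Ngn3-GFPlow cells at E13.5, 31 of 104 at E14.5 and 14 of 37 at E15.5, and 0 Ngn3-GFPhigh cells. They also made up 13 of 62 Ngn3-GFP+ cells at E10.5 and 38 of 121 at E12.5. Results on these sorts are given with and without such cells. The set sums do not tell fewer cells of a type from less RNA per cell, and shares of cells are given where they bear on that.

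Across the 29 groups Plxnb2, a receptor for class 4 semaphorins, had the highest level of the family. Its group means ran from 84.5 CPM in Pdx1-GFPhigh cells of E10.5 to 431 CPM in the single set of Gcg-GFP+ cells of E17.5, and per kilobase of gene length its median over groups was 31.6 CPM, against 12.8 CPM for Ephb4, the next highest. Plxnb2, Plxnb1, Sema4d, Efnb1 and Sema4b were the 5 members at 10 CPM or more in all 29 groups. Sema4d and Sema4b are ligands of B-type plexins and Plxnb1 is the main Sema4d receptor. Their lowest and highest group means were 24.1 and 154 CPM for Plxnb1, 13.1 and 80.9 CPM for Efnb1 and 12.1 and 63.6 CPM for Sema4b, and Sema4d reached 152 CPM. A further 16 members stayed under 10 CPM in every group, among them Robo3, Robo4, Ephb1, Epha6, Ntn3, Ntn4, Ntn5 and Sema7a. A total of 20 members reached 50 CPM in a group, and the heatmap of group means shows which group that was.

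**Figure D1:**
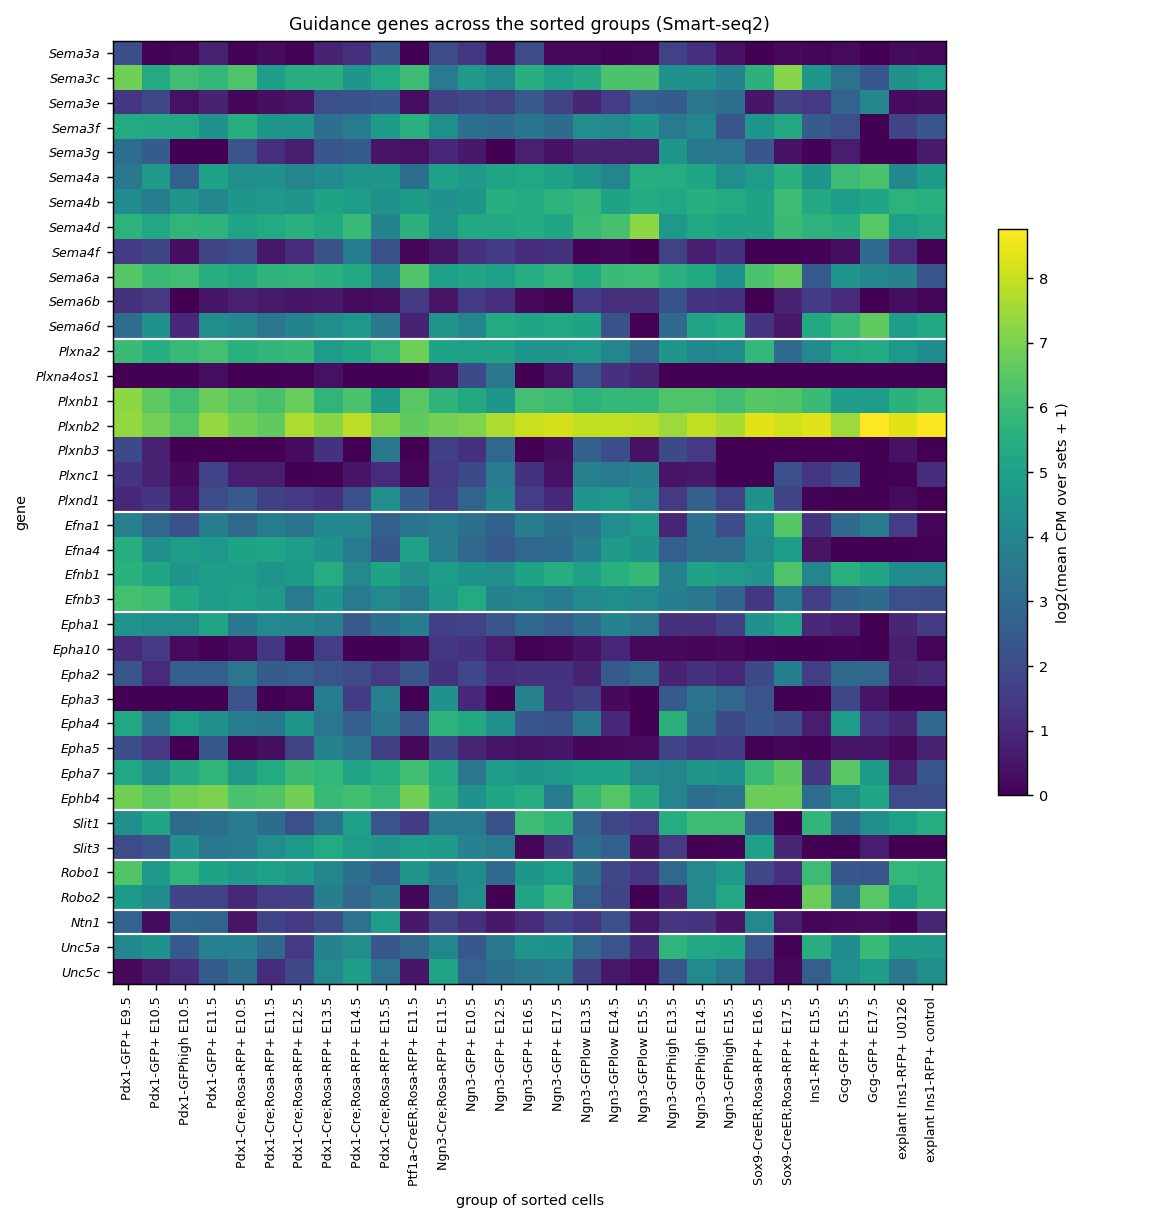
Heatmap of log2(mean CPM over sets + 1) for the 38 named guidance genes (rows, by family) in the 29 Smart-seq2 groups (columns, by reporter and embryonic day). Plxnb2 is bright in every column, from 84.5 to 431 CPM. Slit1 and Unc5a are bright in the Ngn3-GFPhigh, late Ngn3-GFP+ and Ins1-RFP+ columns, and Unc5a is brightest in Gcg-GFP+ cells of E17.5, at 58.63 CPM. Robo1 is brightest in Pdx1-GFP+ cells of E9.5, at 83.05 CPM, and Ephb4 is bright in the early bud, Pdx1-Cre and Sox9-CreER columns.

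The comparison of Ngn3-GFPhigh with Ngn3-GFPlow cells asked which members differed between the sorts. The Ngn3-GFPhigh sets also held hormone RNA, with Ins2 at 2.25 to 11150 CPM and Gcg at 0.277 to 10640 CPM. Ins2 was at 0 to 94.9 CPM in the Ngn3-GFPlow sets, and the part of hormone cells in the differences was not tested. Slit1, Unc5a, Sema3g and Ephb2 were higher in Ngn3-GFPhigh sets, and Ephb4, Epha1, Sema4d, Sema3c and Efnb1 were lower. With embryonic day as a factor, 21 of 64 tested members passed edgeR's quasi-likelihood test (Benjamini-Hochberg adjusted p under 0.05 over 18989 genes), 10 of them higher and 11 lower. Over all tested genes 11.6% were called higher and 18.5% lower. The median log2 fold change was 0.202 over the tested members and -0.044 over all genes. Without the cells of other types 18 members passed, 14 of them among the 21. The 8 neural and glial markers moved with the higher genes, at 296.2 to 796.4 CPM in Ngn3-GFPhigh and 36.45 to 178.4 CPM in Ngn3-GFPlow sets, and their part in the result was not tested. Without the 2 Ngn3-GFPlow sets of high Gcg 25 passed, 20 of them among the 21, and without both those sets and the cells of other types 24 passed, 15 of them among the 21. Shares of all genes called without those cells or sets are not given here, so these counts have no background.

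Of the secreted ligands, Slit1, which binds Robo receptors, was at 47.97, 30.99 and 46.46 CPM in the Ngn3-GFPhigh sets of E13.5, at 69.9, 59.8 and 65.7 CPM at E14.5 and at 50.8 and 74.7 CPM at E15.5. In the 10 Ngn3-GFPlow sets its lowest, median and highest values were 0, 3.69 and 9.05 CPM. Every Ngn3-GFPhigh set lay above every Ngn3-GFPlow set, with a log2 fold change of 3.89 ± 1.00 (SE, 8 sets against 10, edgeR adjusted p = 0.00701) and of 5.20 ± 1.08 without the high-Gcg sets and the cells of other types (edgeR adjusted p = 0.00225). Slit1 was at 10 CPM or more in 40 of 77 Ngn3-GFPhigh cells at E13.5, 72 of 108 at E14.5 and 32 of 51 at E15.5, and in 16 of 118, 4 of 104 and 1 of 37 Ngn3-GFPlow cells. The share of cells at that level was higher in the high sort on each day.

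Sema3g, a secreted class 3 semaphorin that binds neuropilins, was at 8.63, 32.4 and 29.8 CPM in the Ngn3-GFPhigh sets of E13.5, at 13.21, 12.49 and 6.171 CPM at E14.5 and at 12.6 and 6.84 CPM at E15.5. The Ngn3-GFPlow sets ran from 0 to 2.36 CPM with a median of 0.509 CPM. The groups did not overlap, and the log2 fold change was 4.09 ± 0.915 (SE, edgeR adjusted p = 0.00268). It was found at 10 CPM or more in 20 of 77, 17 of 108 and 5 of 51 high-sorted cells by day, so Sema3g marked a minority of them, unlike Slit1. Sema3c, another class 3 ligand, went the other way, at 18.98 ± 11.22 CPM in high and 65.1 ± 46.5 CPM in low sets (log2 fold change -1.75 ± 0.566, edgeR adjusted p = 0.0265). Its groups overlapped, since the 2 high-Gcg sets of the low sort had only 10.9 and 10.6 CPM.

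Sema4d, a transmembrane semaphorin, had 31.9 ± 9.49 CPM in the 8 Ngn3-GFPhigh and 84.4 ± 43.9 CPM in the 10 Ngn3-GFPlow sets (log2 fold change -1.47 ± 0.256, edgeR adjusted p = 0.000386). Leukocytes also carry Sema4d. In the 98 Ngn3-GFPlow cells of other types its level was 97.9 CPM, in the other 161 it was 62.3 CPM, and without the former the log2 fold change was -0.95 ± 0.231 (edgeR adjusted p = 0.00825). The difference was thus smaller in epithelial sums, and it passed there too. The ephrins Efnb1, Efnb3 and Efna4 were lower in Ngn3-GFPhigh sets and Efna2 was higher, by log2 values between -1.59 and 0.70, and Efna2 did not pass without the cells of other types (edgeR adjusted p = 0.456). Efnb1, a transmembrane ephrin, had 23.66 ± 10.52 CPM against 43.55 ± 19.47 CPM (log2 fold change -1.01 ± 0.260, edgeR adjusted p = 0.0069). Exons of Efna4 overlap a gene on the other strand, and the strand setting of the counting is not given in the sources used here, so reads of the pair cannot be told apart.

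**Figure D2:**
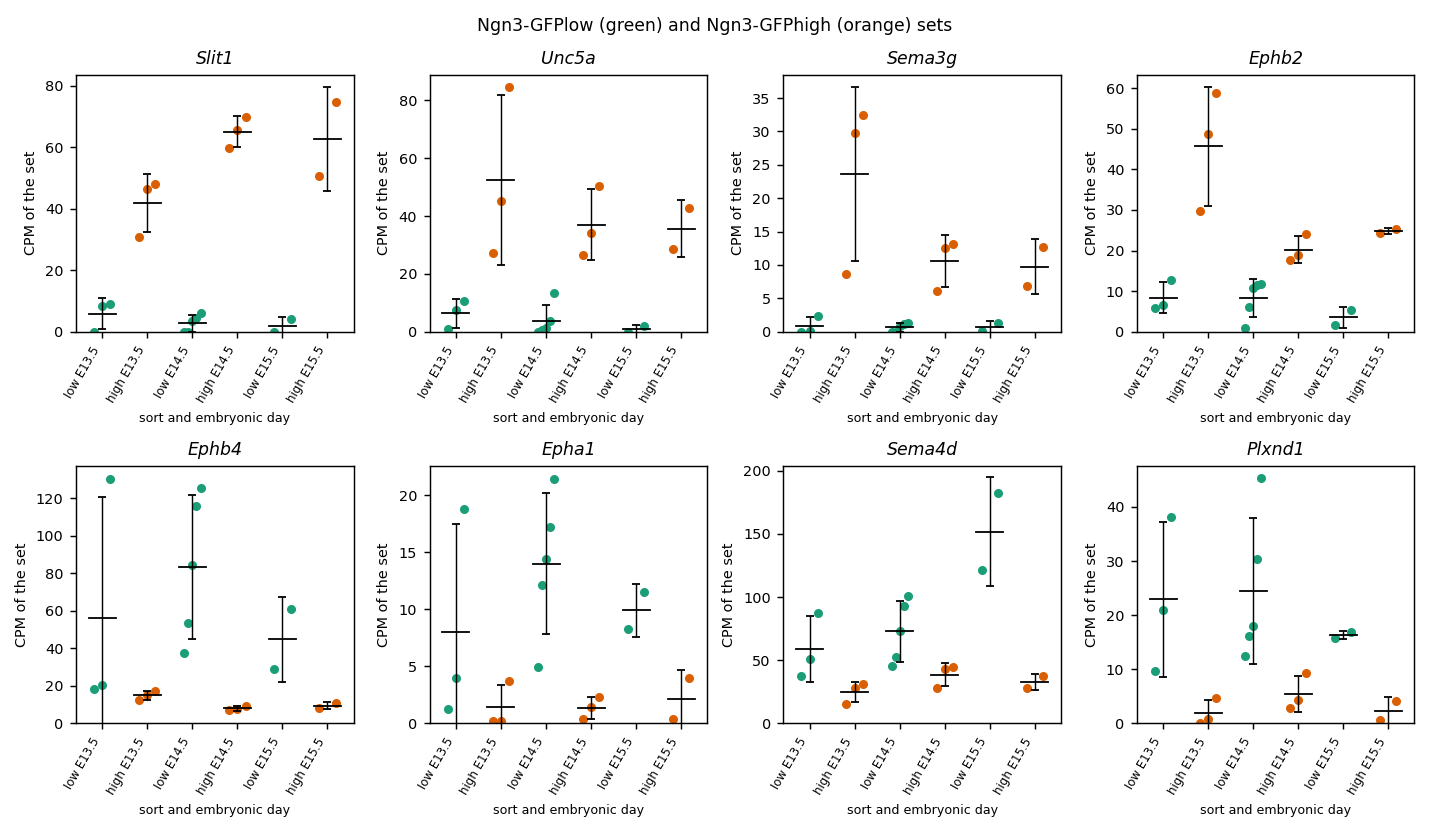
CPM of each set (points) in Ngn3-GFPlow (green) and Ngn3-GFPhigh (orange) cells of E13.5, E14.5 and E15.5 for 8 guidance genes, with bars for the mean and SD over sets. Slit1, Unc5a, Sema3g and Ephb2 have every orange point above every green one, and Ephb4 and Plxnd1 the reverse.

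Of the receptors, Unc5a, a netrin receptor linked to repulsion, was at 84.6, 45.2 and 27.4 CPM in the Ngn3-GFPhigh sets of E13.5, at 50.4, 34.1 and 26.5 CPM at E14.5 and at 28.6 and 42.7 CPM at E15.5. The Ngn3-GFPlow sets ran from 0 to 13.49 CPM around a median of 1.67 CPM. The sorts did not overlap (log2 fold change 3.37 ± 0.869, edgeR adjusted p = 0.00712). Its exons share 0.816% of their bases with Hk3 on the other strand. Unc5c, of the same family, was more uneven, at 0.0277 to 28.5 CPM in high and 0 to 6.27 CPM in low sets, and its call (log2 fold change 3.80 ± 1.40, edgeR adjusted p = 0.0488) was lost without the cells of other types. None of the 3 tested netrins, their ligands, passed in this comparison.

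Ephb4, a receptor for ephrin-B2, fell in the high sort. Its levels were 17.28, 12.26 and 15.04 CPM in the Ngn3-GFPhigh sets of E13.5, 9.39, 6.76 and 7.51 CPM at E14.5 and 8.11 and 10.6 CPM at E15.5. The Ngn3-GFPlow sets had 131, 20.1 and 18.3 CPM at E13.5, 125.7, 84.24, 37.19, 115.9 and 53.6 CPM at E14.5 and 60.9 and 28.7 CPM at E15.5. The groups did not overlap, although the 2 low-sorted sets of high Gcg lay close to the high sort (log2 fold change -2.70 ± 0.413, edgeR adjusted p = 0.000121). Without those sets and the cells of other types the log2 fold change was -3.45 ± 0.248 (edgeR adjusted p = 1.81e-07). Ephb4 shares 0.711% of its exon bases with Zan on the other strand.

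Epha1, an ephrin-A receptor of epithelia, moved with Ephb4, at 1.56 ± 1.57 CPM in high and 11.4 ± 6.73 CPM in low sets (log2 fold change -2.91 ± 0.752, edgeR adjusted p = 0.00727). Ephb2 went the other way, at 17.6 to 58.7 CPM in high and 0.882 to 12.8 CPM in low sets with no overlap (log2 fold change 1.94 ± 0.419, edgeR adjusted p = 0.00207). The leukocyte-marked cells held almost no Ephb2, at 0.613 CPM against 11.9 CPM in the other low-sorted cells, and without them its adjusted p in edgeR was 0.0778 at a log2 fold change of 1.49. Plxna3, a receptor of class 3 semaphorins, was at 42.1 ± 18.5 CPM in high and 15.99 ± 9.744 CPM in low sets, while Plxna1 was lower in the high sort. Both passed, and Plxna1 shares 10.7% of its exon bases with another gene on the other strand. Epha5, Sema3a and Sema4f passed at means under 2 CPM, and Sema4f did not without the cells of other types (edgeR adjusted p = 0.0849).

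Plxnc1, Plxnd1 and the antisense RNA Plxna4os1 were lower in Ngn3-GFPhigh sets together with the leukocyte markers. The 8 leukocyte markers summed to 7.60 to 58.5 CPM in the Ngn3-GFPhigh sets, with up to 4 markers at 0 in a set, and to 9.69 to 9867 CPM in the Ngn3-GFPlow sets. Plxnc1, the receptor of Sema7a, had 32.9 CPM in the 98 low-sorted cells of other types and 1.42 CPM in the other 161. Its log2 fold change was -5.60 ± 1.45 (edgeR adjusted p = 0.00739) with all cells and -0.23 ± 4.18 without those cells (edgeR adjusted p = 0.979). Plxnd1, a receptor for Sema3e that is known from endothelium, had 52.9 CPM in the former and 7.98 CPM in the latter, and its log2 fold change went from -2.98 ± 0.690 to -1.17 ± 1.01 (edgeR adjusted p = 0.468). All 693 reads of Plxna4os1 in the low sort came from the 98 cells, and the high sort held 1 read, a ratio of 652 with a 95% counting interval of 117 to 25800. Neither Plxnc1 nor Plxnd1 passed without the cells of other types.

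Epha3, Sema6a, Sema6d and Efna1 behaved in the opposite way and passed only once cells or sets were left out. Sema6d, a transmembrane semaphorin that binds Plxna1, had 49.8 CPM in the cells of other types and 7.28 CPM in the other low-sorted cells. Its log2 fold change was 2.38 ± 1.45 with all cells (edgeR adjusted p = 0.235), 5.35 ± 1.72 without the cells of other types (edgeR adjusted p = 0.0393) and 7.05 ± 0.773 without the high-Gcg sets as well (edgeR adjusted p = 8.51e-06). Sema6a went from -0.66 ± 0.375 (edgeR adjusted p = 0.204) to -1.06 ± 0.359 (edgeR adjusted p = 0.0484) and then -1.45 ± 0.302 (edgeR adjusted p = 0.00225). The class 6 pair thus differed in opposite directions between the sorts in epithelial sums.

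**Figure D3:**
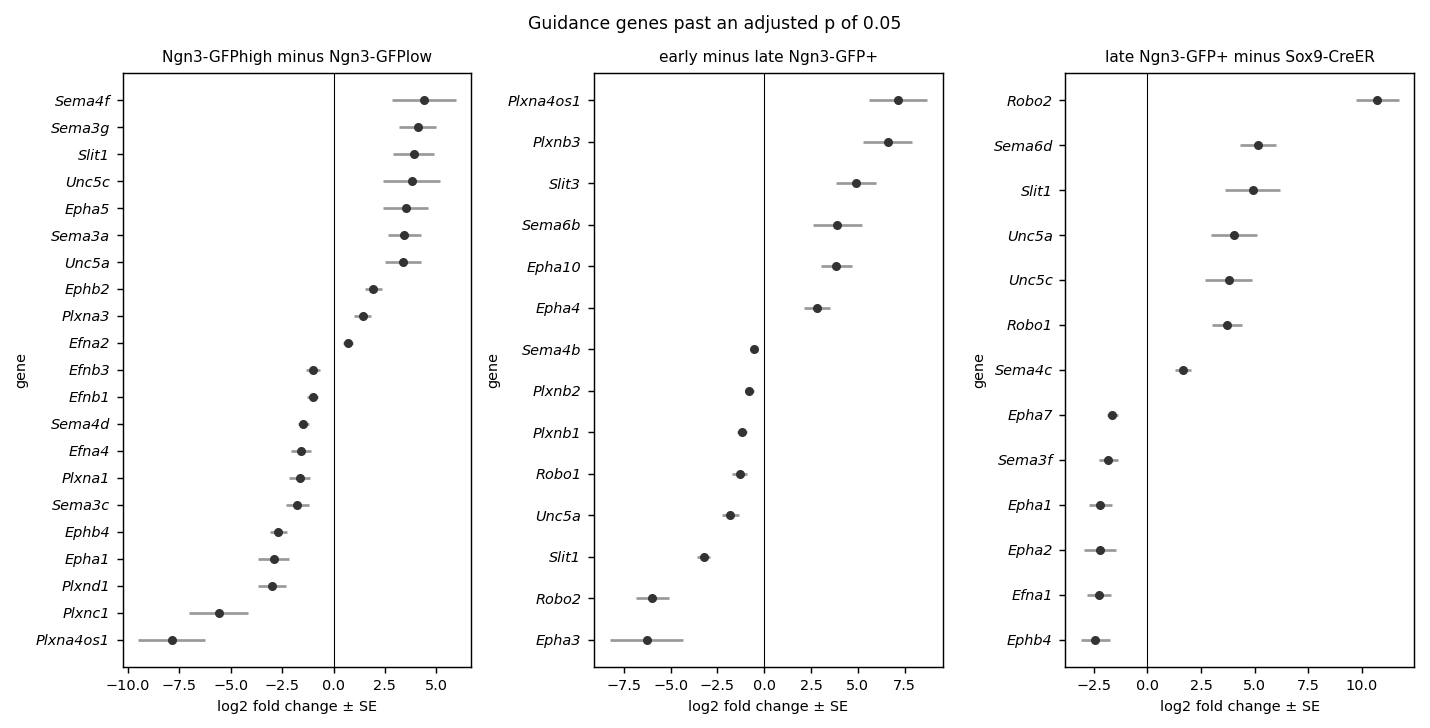
Log2 fold changes with SE for the guidance genes that passed an adjusted p of 0.05 in edgeR's quasi-likelihood test, in 3 comparisons, with genes ordered by fold change. Slit1 and Unc5a are to the right of 0 in the sort and the Sox9-CreER panels and to the left in the early against late panel, in which positive values mean higher in early cells.

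An interaction term asked whether the sort difference at E15.5 was another than at E13.5, and 0 of 64 members passed in edgeR. Unadjusted p was under 0.05 for 6 members, DESeq2 called 5 and limma on mean log2 values of cells called 2. Over all genes edgeR called 0.0737% with a larger difference at E15.5 and 0.0474% with a smaller one. Such shares at an unadjusted p, in DESeq2 or in limma are not given here. Robo2 was at 2.39, 0 and 0 CPM in the Ngn3-GFPhigh sets of E13.5, at 10.51, 19.03 and 19.70 CPM at E14.5 and at 36.13 and 39.95 CPM at E15.5. In the Ngn3-GFPlow sets Robo2 was at 0 to 14.1 CPM at E13.5, at 0 to 6.70 CPM at E14.5 and at 0 in both sets of E15.5. The high sort was thus ordered by day without overlap, and the low sort was not. Hormone RNA also varied among the high-sorted sets, and its part in this order was not tested. Sema6d was also lowest at E13.5 in the high sort, at 2.816 to 10.54, 26.2 to 42.2 and 37.99 to 42.95 CPM by day with overlap of the later days, while the low sort went from 5.83, 60.3 and 31.1 CPM at E13.5 to 0 and 0.0661 CPM at E15.5. Its interaction had an edgeR adjusted p of 0.0833, and 0.0208 without the first E13.5 set of the low sort, the one that had no high Gcg. Robo2 had an edgeR adjusted p of 0.337, a DESeq2 adjusted p of 1.3e-07 and a limma adjusted p of 0.0128, so its call depended on the test.

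Early Ngn3-GFP+ cells (E10.5 with E12.5), the first wave of endocrine cells, were set against late ones (E16.5 with E17.5). Slit1, Robo2, Robo1, Unc5a, Plxnb1, Plxnb2 and Sema4b were lower in the early sets, and Slit3, Epha4 and Epha10 were higher. Of 62 tested members 14 passed in edgeR, 6 higher in early cells and 8 lower, against 12.2% and 9.71% of all 17823 genes. The median log2 difference was -0.397 over the members and 0.0233 over all genes. Without the cells of other types 11 passed, 9 of them among the 14. Without the first set of E12.5, 9 passed. All-gene shares in those fits are not given here. Gcg was at 18600 to 41930 CPM in the early and at 9379 to 25860 CPM in the late sets, whereas Ins2 was at 1.64 to 29.7 CPM in the early and at 6010 to 74480 CPM in the late sets, so the groups differed in endocrine cell types as well as in age. Liver markers summed to 141.2 to 735.6 CPM in the early and to 10.21 to 204.3 CPM in the late sets.

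Slit1 was at 12.2, 4.04 and 18.2 CPM in the sets of E10.5 and at 3.06, 2.60 and 4.79 CPM at E12.5. In the late sets it was at 56.4, 73.6, 64.5 and 55.6 CPM at E16.5 and at 57.8, 32.8, 39.2 and 75.7 CPM at E17.5. All late sets lay above all early sets (log2 difference, early minus late, -3.24 ± 0.336, 6 sets against 8, edgeR adjusted p = 7.1e-05). Slit3, a further Slit, showed the reverse, at 4.90 to 21.6 CPM in the early and 0 to 3.68 CPM in the late sets without overlap (4.90 ± 1.05, edgeR adjusted p = 0.00571). Slit1 and Slit3 thus differed between early and late cells in opposite directions.

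Robo2, a Slit receptor, was at 23.8, 34.5 and 0.884 CPM at E10.5 and at 0.0362, 0 and 0.0268 CPM at E12.5. It was at 30.4, 59.6, 33.5 and 9.94 CPM at E16.5 and at 70.7, 88.9, 25.1 and 37.3 CPM at E17.5. The groups overlapped through the E10.5 sets, and the log2 difference was -5.98 ± 0.876 (edgeR adjusted p = 0.000639). Robo1 was at 12.6 ± 7.36 CPM in early and 26.8 ± 13.3 CPM in late sets (edgeR adjusted p = 0.0364), and its adjusted p was 0.0781 without the cells of other types. Unc5a, Plxnb1, Plxnb2 and Sema4b were lower in early sets by log2 values between -1.81 and -0.54, and all 4 passed with and without those cells. Plxnb2 had 168 ± 63.7 CPM early and 278 ± 90.8 CPM late (edgeR adjusted p = 0.0372).

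Epha4, a receptor for ephrins of both classes, was at 26.19, 48.34 and 42.95 CPM at E10.5 and at 17.09, 24.02 and 18.58 CPM at E12.5. The late sets had 0 to 9.62 CPM, below every early set (log2 difference 2.80 ± 0.698, edgeR adjusted p = 0.0127). Epha10 also separated the groups, at means of 1.01 and 0.0622 CPM. Plxnb3, Sema6b and Plxna4os1 were higher in early sets in which leukocyte markers summed to 416 to 6783 CPM, against 26.04 to 699.9 CPM in the late sets. In early sets Plxnb3 had 889 reads in the 57 cells of other types and 59 reads in the rest, and its adjusted p was 1.0 without the former. Epha3 passed as lower in early cells (edgeR adjusted p = 0.0413), with 1 late set at 45.6 CPM and the rest at 0 to 5.32 CPM. Of its 1523 late reads 1028 lay in 5 cells of other types, and its adjusted p was 0.0759 without such cells.

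Late Ngn3-GFP+ cells were compared with Sox9-CreER;Rosa-RFP+ cells of the same days, which descend from cells with an active Sox9 promoter. Both Robo receptors, Slit1, Unc5a, Unc5c, Sema6d and Sema4c were higher in the Ngn3-GFP+ sets, and Epha7, Ephb4, Epha1, Epha2, Efna1 and Sema3f were higher in the Sox9-CreER sets. The Sox9-CreER sets were not of 1 cell type. Their 8 acinar markers summed to 38800 and 43410 CPM at E16.5 and to 560.7 and 1052 CPM at E17.5, and their 8 trunk and duct markers to 3309 and 5052 CPM and to 16540 and 23440 CPM. The Ngn3-GFP+ sets had 32.75 to 7625 CPM of the acinar and 791.6 to 4234 CPM of the trunk and duct markers. Without the 2 E16.5 sets of high acinar markers 11 members passed, 9 of them among the 13, and Epha1, Epha2, Sema3f and Sema4c had edgeR adjusted p of 0.0622, 0.0679, 0.0533 and 0.0806. The share of all genes called in that fit is not given here. Of 60 tested members 13 passed in edgeR, 7 higher in Ngn3-GFP+ sets and 6 lower, against 11.4% and 9.49% of all 17225 genes. The median log2 fold change was -0.388 over the members and 0.109 over all genes. All 13 also passed without the cells of other types. For each of the 7 higher members every Ngn3-GFP+ set lay above every Sox9-CreER set. These 7 had been chosen by the test on the same sets, and the share of all genes without overlap was not counted.

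Robo1 was at 0.499, 4.90, 1.64 and 1.04 CPM in the 4 Sox9-CreER sets, against 10.3 to 55.9 CPM in the 8 Ngn3-GFP+ sets (log2 fold change 3.70 ± 0.698, edgeR adjusted p = 0.00309). Robo2 had 1 read over all 4 Sox9-CreER sets and 10435 reads in the Ngn3-GFP+ sets, at 9.94 to 88.9 CPM (edgeR adjusted p = 4.04e-05). The ratio of their summed CPM was 2330, with a 95% counting interval of 418 to 92100 that covers counting error only. At least 10 CPM of Robo2 was found in 40 of 130 Ngn3-GFP+ cells at E16.5, in 53 of 125 at E17.5 and in 0 of the 55 and 34 Sox9-CreER cells. The ligand and the receptors were thus in the same sort, with Slit1 at 32.8 to 75.7 CPM against 0.0713, 10.9, 0 and 0 CPM (4.90 ± 1.28, edgeR adjusted p = 0.0183). The single Sox9-CreER set with Slit1 above 1 CPM was the second of E16.5, which had Neurog3 at 149 CPM, while the first set of that day had Neurog3 at 400 CPM.

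Sema6d was at 16.7 to 58.3 CPM in the Ngn3-GFP+ and 0 to 2.64 CPM in the Sox9-CreER sets (log2 fold change 5.15 ± 0.847, edgeR adjusted p = 0.00133). Unc5a, at 21.7 ± 8.82 against 1.858 ± 2.096 CPM, and Unc5c, at 11.2 ± 4.23 against 0.963 ± 1.69 CPM, passed with edgeR adjusted p of 0.0191 and 0.0313. Sema4c, a ligand of Plxnb2, had 13.03 ± 3.814 against 4.144 ± 1.263 CPM (edgeR adjusted p = 0.00792), and 7.27% of its exon bases are shared with a gene on the other strand. Plxnb2 itself was at 278 ± 90.8 and 303 CPM and did not pass (edgeR adjusted p = 0.707).

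Of the 6 members higher in Sox9-CreER sets 4 were Eph receptors. In the droplet libraries Ephb4 and Epha7 were at similar levels in acinar cells (32.38 and 39.14 CPM, and 16.52 and 25.85 CPM) and in trunk and duct cells (36.47 and 40.09 CPM, and 15.27 and 20.39 CPM). Epha7, an ephrin-A receptor, was at 74.75, 45.01, 76.64 and 110.5 CPM in the Sox9-CreER sets and at 13.3 to 36.7 CPM in the Ngn3-GFP+ sets, with no overlap (log2 fold change -1.63 ± 0.272, edgeR adjusted p = 0.00147). Ephb4 was at 118, 99.7, 113 and 99.5 CPM in the Sox9-CreER sets, and 7 of the 8 Ngn3-GFP+ sets lay at 4.73 to 37.8 CPM. The exception was the fourth set of E16.5, at 118 CPM, which was also the set with Epha3 at 45.6 CPM. Ephb4 was at 10 CPM or more in 48 of 55 and 31 of 34 Sox9-CreER cells (log2 fold change -2.42 ± 0.656, edgeR adjusted p = 0.0211). Efna1, the ligand of Epha2, differed by -2.27 ± 0.563 (edgeR adjusted p = 0.014) and was at 18.6 and 22.5 CPM at E16.5 and at 103 and 69.7 CPM at E17.5 in the Sox9-CreER sets. Epha1 and Epha2 passed at -2.19 and -2.22, and Sema3f, a secreted ligand of Nrp2, at -1.84 ± 0.442 without overlap of the groups.

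**Figure D4:**
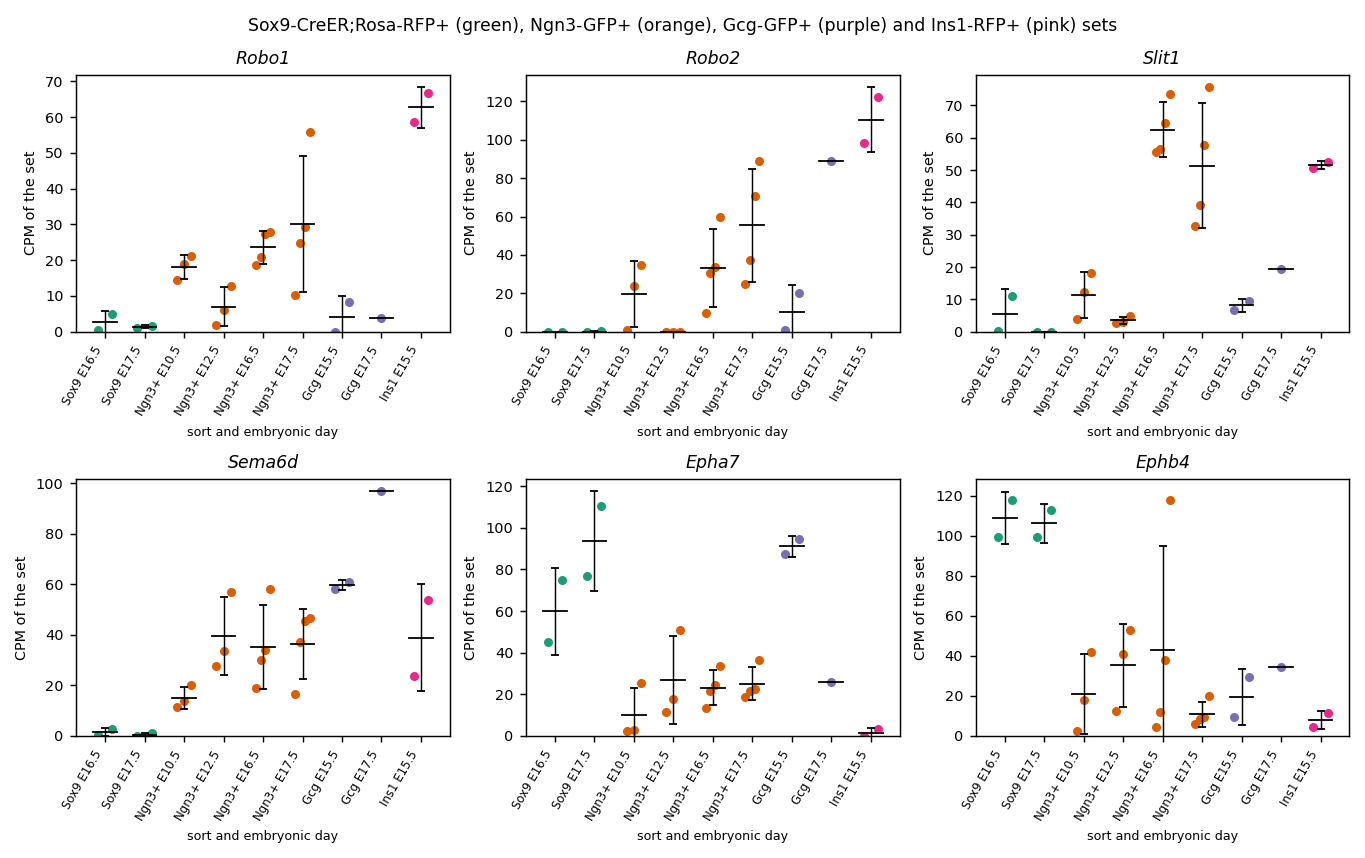
CPM of each set (points) for 6 guidance genes in Sox9-CreER;Rosa-RFP+ (green), Ngn3-GFP+ (orange), Gcg-GFP+ (purple) and Ins1-RFP+ (pink) cells by day, with bars for the mean and, where there is more than 1 set, the SD. Robo1, Robo2, Slit1 and Sema6d are near 0 in the green sets, and Epha7 is near 0 in the pink sets but at 87.5 and 94.7 CPM in the purple sets of E15.5.

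Ins1-RFP+ beta cells and Gcg-GFP+ alpha cells of E15.5 had 2 sets each, and their spread was shared with the other E15.5 sorts. In edgeR 0 of 62 members passed, with 8 at an unadjusted p under 0.05, while DESeq2 called 6 and limma called 5. Over all genes edgeR called 0.335% higher and 0.358% lower in Ins1-RFP+ cells. Shares of all genes at an unadjusted p or in the other tests are not given here. Epha7 was at 0 and 3.34 CPM in Ins1-RFP+ and at 94.7 and 87.5 CPM in Gcg-GFP+ sets (log2 fold change -5.47 ± 1.26, edgeR adjusted p = 0.107, DESeq2 adjusted p = 1.64e-05, limma adjusted p = 0.00581). Robo2 was at 123 and 98.6 CPM in Ins1-RFP+ and at 20.3 and 0.640 CPM in Gcg-GFP+ sets (3.61 ± 1.19, edgeR adjusted p = 0.261, DESeq2 adjusted p = 0.022, limma adjusted p = 0.000561). The sets of the sorts did not overlap for either gene, nor for other members, such as Robo1, Slit1 and Plxnb2. The share of all genes without overlap was not counted. The calls of Epha7 and Robo2 depended on the test.

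Robo1 was at 58.7 and 66.8 CPM in Ins1-RFP+ and at 8.37 and 0 CPM in Gcg-GFP+ sets, and Slit1 at 52.5 and 50.7 against 9.47 and 6.75 CPM. Robo1 was at 10 CPM or more in 30 of 39 Ins1-RFP+ and in 2 of 36 Gcg-GFP+ cells. Plxnb2 was at 336 and 321 against 182 and 170 CPM (edgeR adjusted p = 0.15). In the 1 set of Gcg-GFP+ cells of E17.5, which entered no test, Robo2 was at 88.9, Robo1 at 3.83, Epha7 at 25.99, Sema6d at 96.9 and Plxnb2 at 431 CPM. Robo2, Epha7, Sema6d and Plxnb2 there lay outside the range of the E15.5 Gcg-GFP+ sets, and Robo1 lay within it.

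In the Pdx1-Cre;Rosa-RFP+ lineage, which holds all pancreatic epithelium, levels were followed over 6 days and 19 sets. Of 64 tested members 5 passed in edgeR, 4 rising and 1 falling, against 3.54% and 1.80% of all 18710 genes. The median slope was 0.0179 log2 units per day over the members and 0.00576 over all genes. Ntn1, the founding netrin, rose by 1.06 ± 0.195 log2 units per day (edgeR adjusted p = 0.00198). Its set values were 0.768 and 0 CPM at E10.5, 1.46 and 3.41 CPM at E11.5, 0 to 3.34 CPM at E12.5, 1.03 to 4.48 CPM at E13.5, 2.90 to 16.3 CPM at E14.5 and 19.2 to 37.1 CPM at E15.5. Efna4 fell by 0.57 ± 0.157 log2 units per day (edgeR adjusted p = 0.0361), with group means of 32.7 CPM at E10.5 and 4.25 CPM at E15.5. The acinar markers of the same sets summed to 209.9 to 301.2 CPM at E10.5, to 2230 to 9366 CPM at E14.5 and to 25230 to 63770 CPM at E15.5, and their part in the slope of Ntn1 was not tested. Ntn1 was thus low until E13.5 and separated the last day from all earlier ones. Ntn1 was the 1 member of the 5 that passed in each of the 19 fits without 1 set. Without the cells of other types 4 of the 5 passed, and Sema3a did not (edgeR adjusted p = 0.101). Sema3e, Sema3a and Plxnb3 also passed with all cells, at set values of 0 to 28.1 CPM, and for Plxnb3 1 set of E15.5 held that highest value.

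In Pdx1-GFP+ cells of the early bud, 0 of 62 members passed between E11.5 and E9.5 in edgeR, with 14 at an unadjusted p under 0.05, while DESeq2 called 4 and limma 0. Over all genes edgeR called 0.0360% higher and 0.0120% lower at E11.5. All-gene shares at an unadjusted p or in the other tests are not given here. Efnb3, a transmembrane ephrin, was at 64.4, 73.9 and 69.6 CPM at E9.5, at 61.8 and 67.5 CPM at E10.5 and at 28.8 and 26.2 CPM at E11.5 (log2 fold change -1.31 ± 0.203, edgeR adjusted p = 0.102, DESeq2 adjusted p = 2.82e-10). Robo1 was at 90.9, 80.1 and 78.2 CPM at E9.5 and at 19.1 and 46.1 CPM at E11.5 (edgeR adjusted p = 0.371), and its E9.5 mean was the highest of the 29 groups. The sets of the 2 days did not overlap for Efnb3 or Robo1, nor for other members, such as Sema6a and Sema3c. How many of all genes lacked overlap was not counted. Leukocyte markers summed to 3.859 to 6.619 CPM in the E9.5 and to 344.5 to 381.7 CPM in the E11.5 sets, neural and glial markers to 484.3 to 538.1 and to 104.7 to 124.3 CPM, and their part in these values was not tested. Slit1 was at 10.4, 23.1 and 27 CPM at E9.5, so ligand and receptor were both present in the first bud cells.

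The U0126 explants asked whether MEK inhibition changed Ins1-RFP+ cells. In edgeR 0 of 35 tested members passed, with 1 at an unadjusted p under 0.05, and DESeq2 and limma also called 0. Over all 12632 genes edgeR called 0.00% higher and 0.00% lower, so no gene passed. The share of all genes at an unadjusted p under 0.05 is not given here. Robo2 was at 60.4, 76.2, 34.9 and 31.3 CPM in control and at 36.1, 25.99, 31.15 and 31.98 CPM in U0126 sets (log2 fold change -0.66 ± 0.301, edgeR p = 0.0503, adjusted p = 1.0). Robo1 was at 49.2 ± 9.79 CPM in control and 54.6 ± 11.6 CPM in treated sets, and Slit1 at 33.1 to 47.9 and 12.1 to 43.2 CPM. The groups overlapped for each of these genes. Unc5c had no overlap between its groups, at 11.67 to 27.13 CPM in control and 7.188 to 11.64 CPM in treated sets (log2 fold change -0.88 ± 0.434, edgeR adjusted p = 1.0). The share of all genes without overlap was not counted. Epha4 was the member at an unadjusted p under 0.05, at 0.225 to 14.9 CPM in control and 0.113 to 2.48 CPM in treated sets (edgeR p = 0.0468, adjusted p = 1.0).

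Partners and intracellular transducers of these families were counted from lists. Of 13 tested partners 4 were higher and 3 lower in Ngn3-GFPhigh than in Ngn3-GFPlow sets, where 11.6% and 18.5% of all genes were. Without the cells of other types 3 were higher and 2 lower, and Gpc1 and Nrp1 did not pass (edgeR adjusted p = 0.0606 and 0.0685). All-gene shares without those cells are not given here. Draxin, a secreted netrin antagonist, Dscam, Flrt1 and Gpc1 rose by log2 values of 5.26, 6.68, 4.03 and 1.46, and Nrp1, the neuropilin of class 3 semaphorins, Flrt2 and Rgma fell by 3.51, 3.60 and 2.90. Of 29 transducers 4 were higher, among them Dpysl5, a collapsin response mediator, at 3.87 ± 0.521 (edgeR adjusted p = 3.55e-05), and 4 were lower, among them Dock1 at -2.32 ± 0.261 (edgeR adjusted p = 7.77e-06). In late Ngn3-GFP+ against Sox9-CreER cells 1 partner was higher and 3 were lower, with Nrp1 at -2.41 ± 0.462 (0 passed without the sets of high acinar markers). Of the transducers 3 were higher and 2 lower, where 11.4% and 9.49% of all genes were. In early against late Ngn3-GFP+ cells 2 partners were higher and 1 lower and 2 transducers were higher and 3 lower. Of all genes 12.2% were higher and 9.71% lower there. Over days in Pdx1-Cre cells 1 partner and 1 transducer fell, between the Pdx1-GFP+ days 1 transducer fell, and in the other 3 comparisons 0 passed. Of all genes 1.80% fell over days in Pdx1-Cre cells and 0.0120% between the Pdx1-GFP+ days. Without the cells of other types Nrp1 differed between the Ngn3-GFP sorts by -1.71 ± 0.632.

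The droplet libraries showed which cells outside the sorts carried these genes. Library 1 had 3402 cells (median 9238 UMIs) and library 2 had 6575 (median 4901) after filtering, in 18 and 22 clusters made without the members. Clusters were named from marker lists, and 693 cells of library 1 stayed unnamed. The libraries share 37 cell barcodes and 1 condition, so values are given with no test, as CPM of a class's summed UMIs. A pericyte and smooth muscle class was named only in library 2. In library 1 a cluster of 128 cells scored best for that list, at 0.333, and stayed unnamed. Clusters scoring best for alpha, beta or late precursor markers were given the class endocrine, a choice made after their values were seen. In library 1 that class was a single cluster of 164 cells, scoring best for alpha. In library 2 it joined a beta and an alpha cluster of 267 cells each. A cluster of 105 cells in library 1 scored best for late precursor markers and stayed unnamed. Its leading genes held Spp1 and Sox9 of the trunk and duct list and Chgb of the late precursor list. Stated pairs are for library 1 and library 2.

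Endothelium had 7 of the 12 gene and class pairs in which a member had at least 30 UMIs and at least 2 times the CPM of every other class in both libraries. They were Plxnd1 at 432 and 425 CPM, Efna1 at 137 and 222, Robo4, an endothelial Robo, at 125.7 and 149.9, Unc5b at 79.2 and 128, Ephb4 at 89.4 and 89.8, Efnb2, the arterial ephrin, at 63.2 and 67.7, and Sema6d at 58.9 and 111. The share of all genes that led a class by this rule was not counted, so the 7 pairs have no background. Robo4 was at 0.297 and 0.899 CPM in the next class. Plxnd1 was next highest in leukocytes, at 44.5 and 49.6 CPM, and Ephb4 next highest in trunk and duct cells, at 36.5 and 40.1 CPM. In the Smart-seq2 sorts the 8 endothelial markers summed to at most 204 CPM in a Ngn3-GFPlow set and 29.5 CPM in a Ngn3-GFPhigh set.

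Mesothelium led for Plxna4, at 145 and 113 CPM, and Sema3a, at 46.4 and 71.6 CPM, a ligand and a receptor of 1 pathway. Mesenchyme, the most numerous class, had Slit2 at 199 and 319 CPM, Sema5a at 149 and 182, Epha4 at 140 and 112 and Unc5c at 111 and 109. Slit2 was also at 91.5 and 209 CPM in neural and glial cells. Slit1, by contrast, was at 0.297 CPM in the mesenchyme of library 1 and at 0 in that of library 2, and was at 23.5 and 14.4 CPM in endocrine progenitors and 6.609 and 16.39 CPM in endocrine cells. Endocrine progenitors held 724292 and 1044775 UMIs in all and endocrine cells 1815596 and 2988884, so these Slit1 values rest on few UMIs. Slit2 and Slit1 were thus highest in different classes in both libraries.

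Within the epithelium, Ntn1 led in acinar cells, at 17.1 and 40.1 CPM, Unc5a in endocrine cells, at 18.2 and 14.7 CPM, and Unc5cl in trunk and duct cells, at 8.97 and 7.37 CPM. The pair of Unc5cl was lost in all 3 other settings of filter, doublets and resolution, that of Unc5a at the lower resolution and that of Plxna4 with doublets kept. Sema3g was at 27.6 and 34.5 CPM in endocrine progenitors and at 0.552 and 2.01 CPM in endocrine cells, while endothelium had 26.9 and 13.4 CPM. Slit3 was at 20.4 and 20.5 CPM in acinar cells and at 1.65 and 0.669 CPM in endocrine cells. Plxnb1 was at 66.2 and 76.1 CPM in trunk and duct cells. Plxnc1 was at 20.4 and 21.6 CPM in leukocytes and at most 11.6 CPM elsewhere, and Plxna4os1 at 27.8 and 12.0 CPM in leukocytes. Leukocytes had the highest level of both in each library. Robo1 and Robo2 were at 5.51 and 8.26 CPM in the endocrine cells of library 1 and at 9.37 and 9.37 CPM in those of library 2. With 1815596 and 2988884 UMIs in endocrine cells and 1079575 and 1249138 in leukocytes, such levels rest on few UMIs.

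**Figure D5:**
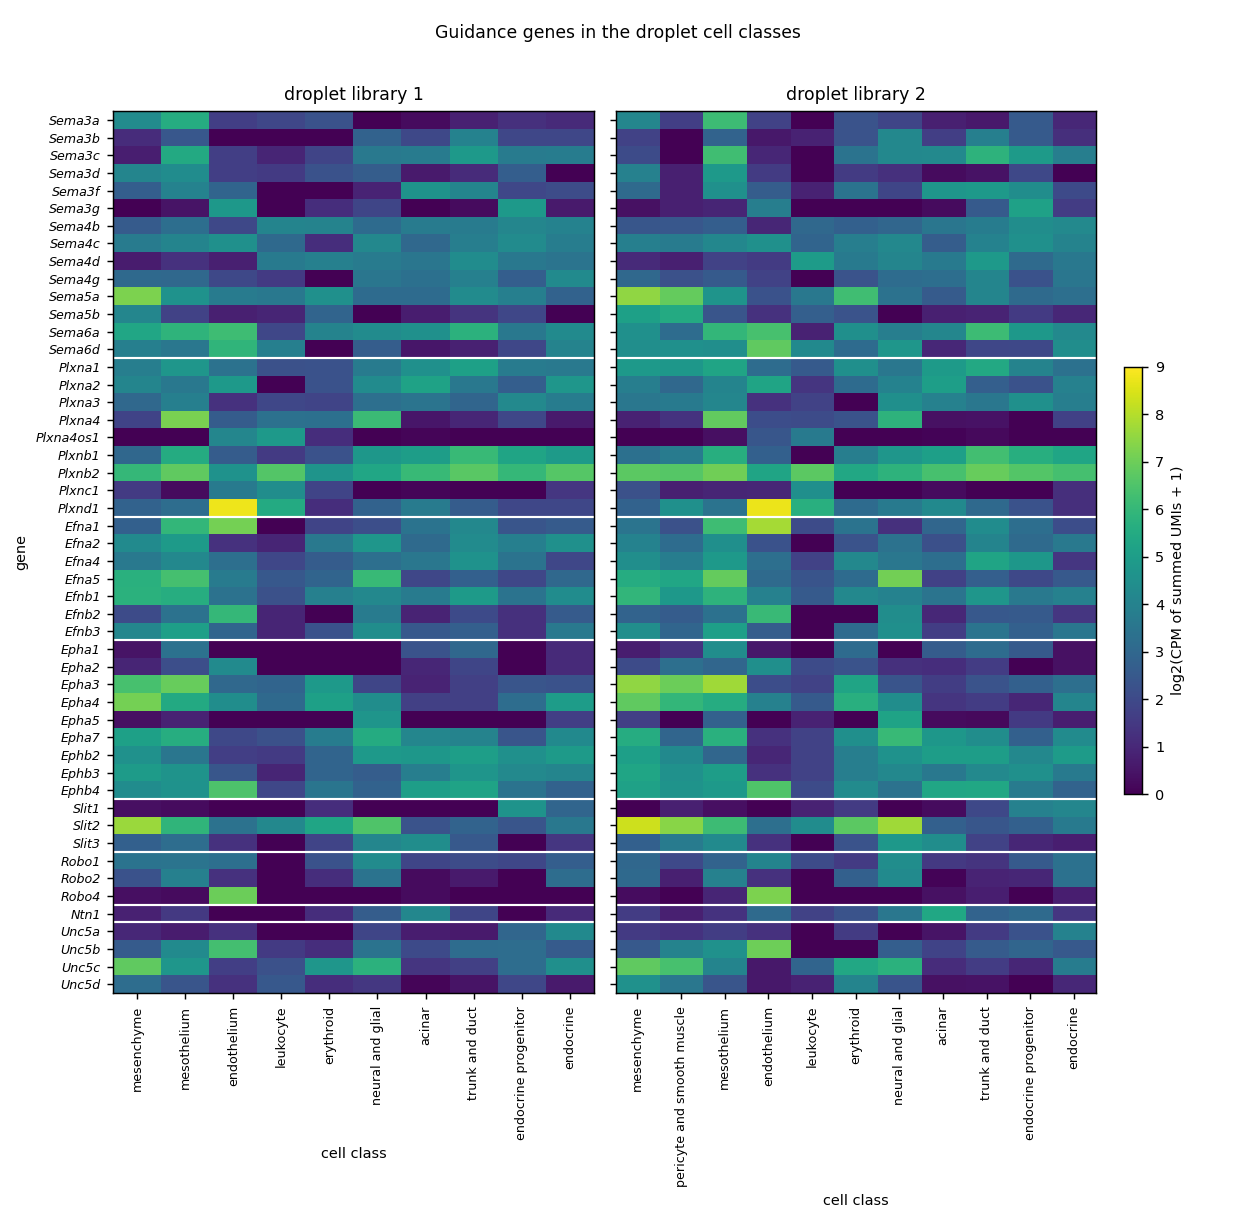
Heatmaps of log2(CPM of summed UMIs + 1) for the 50 guidance genes that reached 15 CPM in a class (rows, by family) in the cell classes of droplet library 1 and library 2 (columns). Plxnd1 is brightest in endothelium, at 432 and 425 CPM, Slit2 in mesenchyme, and Sema3g in endocrine progenitors and endothelium.

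Some members lie side by side in the genome. Robo1 (chr16:72308306-73046095) and Robo2 (chr16:73891839-74411825) are 846 kb apart on opposite strands of GRCm38, and both were higher in late Ngn3-GFP+ than in Sox9-CreER sets. Efna1, Efna3 and Efna4 lie within 1 stretch of chromosome 3, with gaps of 32.8 and 10.4 kb. Efna1 and Efna4 were both lower in Ngn3-GFPhigh sets, Efna1 without passing (log2 fold change -2.33 ± 0.920, edgeR adjusted p = 0.0656). Efna3, which lies between them, had the opposite order and did not pass. It was at 2.39 ± 3.20 CPM in Ngn3-GFPhigh and 0.888 ± 1.34 CPM in Ngn3-GFPlow sets. Sema3b and Sema3f are 72.3 kb apart on chromosome 9, and Ephb2 and Epha8 93.4 kb apart on chromosome 4.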

How the data were processed

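Full-length cDNA libraries (Smart-seq2) of 2195 sorted mouse cells and 2 droplet libraries (10x) were analysed. The deposited plate-based table holds read counts per gene as whole numbers, with no molecular identifiers, so PCR copies are counted, and intervals and floors cover counting error only. The deposited droplet matrices hold UMI counts. The submitters' processing notes name TopHat2 2.1.0, Bowtie2, HTSeq 0.6.0, Cell Ranger 2.0.2 and the build mm10, and the strand setting and the annotation are not given in the sources used here. Rows of 92 spike-in sequences stayed out of library sizes and tests. The deposited TPM values were not used, and the gene lengths of the authors' table served for the levels per kilobase.

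Counts were summed over the cells of each of the 82 numbered sets. Sets were compared with edgeR 4.0.16 (TMM scaling, filterByExpr, quasi-likelihood test, Benjamini-Hochberg adjustment over all tested genes) in R 4.3.3, with DESeq2 1.42.0 and limma 3.58.1 as alternatives, and the fits were tested on simulated data. An SE is the absolute log2 fold change divided by the square root of F. Cells of other types were the 178 cells with at least 4 leukocyte, endothelial, mesenchymal or liver markers at 100 CPM or more. The set numbers are not stated to pair the sorts. Between the Ngn3-GFP sorts the 8 pairs of equal number correlated at 0.0065 to 0.12 (median 0.0567), 1 of them above 0.1. Pairs of unequal number had a median of -0.0166. In the explants the 4 pairs of equal number correlated at 0.0388 to 0.138, and unequal ones at -0.116 to 0.0626. Over days in Pdx1-Cre cells 2 of 39 equal and 6 of 109 unequal pairs correlated above 0.1. The main fits did not pair sets. Droplet cells of 1000 genes or more and no more than 10% mitochondrial UMIs, without 4 and 189 called doublets, were clustered in scanpy 1.11.5 on 2000 variable genes that held no member (30 components, 15 neighbours, resolution 1.0). Clusters were named from at least 3 markers at a score of at least 0.4. A cluster stayed unnamed where another list had more markers than its best list among its leading genes. It also stayed unnamed where its UMIs were low and none of its own markers were among them. Gene positions came from GENCODE annotation of GRCm38 and promoter windows from RefSeq.

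Members, marker lists and tests were chosen with earlier results of these data known. Named were members past the adjusted threshold (the 6 largest each way where over 12 passed), members with a group mean of at least 50 CPM, and droplet genes with at least 30 UMIs in a class. Other genes that the text singles out, such as Ephb2, Plxna3, Epha10 and the interaction of Sema6d, were chosen after their values were seen.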

Additional observations from a re-analysis of the deposited data

Results flagged for a closer look

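In groups of 4 or 5 sets, 1 set stood far from the rest by Dixon's criterion in 15 of 117 tested pairs of a gene and a group (12.8%), where chance gives about 1 in 20. Plxnb2, the receptor with the highest level, was at 369.4 CPM in set 4 of Pdx1-Cre;Rosa-RFP+ E14.5, where the other sets had 185.8 to 191.3 CPM. It was at 609.4 CPM in set 4 of the control explants, where the others had 328.9 to 372.7 CPM.

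Among the late Ngn3-GFP+ sets, Epha3 was at 45.59 CPM in set 4 of E16.5 against at most 5.316 CPM in the others, and cells of other types held 1028 of the 1523 late Epha3 reads. In set 1 of E17.5, Sema3c was at 45.81 CPM against 23.27 to 25.42, Efna1 at 15.31 CPM against 5.414 to 6.389, and Plxnb3 at 0.8693 CPM against at most 0.05673. In set 3 of E17.5, Plxna4os1 was at 1.412 CPM and the other sets had 0. That set also had the highest sum of leukocyte markers of the late sets, 700 CPM, and the part of this in the value was not tested.

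Among the Ngn3-GFPlow sets of E14.5, Plxna4os1 was at 5.635 CPM in set 3, which had the highest leukocyte marker sum of the low sort, 9867 CPM, and at 0 to 1.11 CPM in the others. In set 5, Unc5a was at 13.49 CPM against at most 3.599, Unc5c at 2.204 CPM against at most 0.08539 and Sema4f at 0.3526 CPM against at most 0.08751. All 3 were genes called higher in Ngn3-GFPhigh cells, and Neurog3 in set 5 was at 461.6 CPM, against 138.4 to 567.6 CPM in the other sets of that day.

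The other outlying values in Pdx1-Cre;Rosa-RFP+ cells were of genes at low levels. Sema3a was at 2.758 CPM in set 2 of E13.5 against at most 0.2274 and at 4.802 CPM in set 3 of E14.5 against at most 0.3523, Plxnb3 was at 5.644 CPM in set 2 of E13.5 against at most 0.09376, and Sema3e was at 1.506 CPM in set 3 of E12.5 against at most 0.1072. These are 3 of the 5 genes called over days in that lineage.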

How the results depend on the processing

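The number of members called changed with the setting. For the sort comparison (21 called) DESeq2 gave 31, limma on mean log2 CPM of cells 24, no filter 19, RLE scaling 21, sums without cells of other types 18, and fits that left out 1 set 15 to 24. For the sort difference over days (0 called) DESeq2 gave 5, limma 2 and leaving out 1 set 0 to 1, the 1 without Ngn3-GFPlow E13.5 set 1. For early against late Ngn3-GFP+ cells (14 called) leaving out 1 set gave 9 to 15, with 9 without E12.5 set 1, and limma gave 18 of which 14 were higher and 4 lower in early cells. For the trend over days (5 called) DESeq2 gave 10, and leaving out 1 set gave 2 to 6, with 2 without E11.5 set 1, E12.5 set 1, E15.5 set 2 or E15.5 set 3. For late Ngn3-GFP+ against Sox9-CreER cells (13 called) limma gave 24, leaving out 1 set 9 to 14 and leaving out the sets of high acinar markers 11. For Ins1-RFP+ against Gcg-GFP+ cells (0 called) DESeq2 gave 6, limma 5, no filter 1 and leaving out 1 set 0 to 1, the 1 without Gcg-GFP+ set 1 or Ins1-RFP+ set 2. For Pdx1-GFP+ E11.5 against E9.5 (0 called) DESeq2 gave 4 and leaving out 1 set 0 to 0, and for the explants every setting run gave 0. The cause of these differences was not tested. Shares of all genes called in these other settings are not given here, so the counts have no background.

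A replicate block on set number gave 16 for the sort comparison, 9 for early against late cells, 2 for the trend, 8 against Sox9-CreER cells and 0 for the others. Of the 16, 13 were among the 21 of the main fit, and of the 2 for the trend 1 was among the 5. Equal set numbers correlated at 0.0065 to 0.12 between the sorts, and unequal ones at -0.103 to 0.032. Fits with the block and without cells of other types, added after seeing the data, gave 12, 7 and 0 for the sort comparison, early against late cells and the sort difference over days. The fits without the sets of high Gcg or high acinar markers were also added after seeing the data.

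Calls that held in every setting run, apart from those that left out 1 set, were Slit1, Unc5a, Ephb4, Epha1 and Sema4d between the sorts, Slit1, Robo2, Slit3 and Epha10 between early and late cells, Robo1, Robo2, Slit1, Sema6d, Efna1 and Epha7 against Sox9-CreER cells, and Ntn1 over days. No named gene changed direction. Of 135 levels, 127 moved by less than 1 SD when cells were averaged with equal weight and the median over sets was taken. The largest ratio of change was 0.377, for Ephb4 in Ngn3-GFPlow E13.5 cells (56.32 to 21.21 CPM). Of the 12 droplet pairs, 11 were shared at a minimum of 500 genes (Unc5cl lost), 10 with doublets kept (Plxna4 and Unc5cl lost) and 10 at resolution 0.5 (Unc5a and Unc5cl lost). Values under about 1 CPM rest on small numbers of reads and cells, and the comparison of 2 Ins1-RFP+ with 2 Gcg-GFP+ sets has low precision.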

Other observations

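Lineage cells of E11.5 entered no comparison between groups, and their values are given with no test. Ptf1a-CreER;Rosa-RFP+ cells, of the multipotent tip, had Plxna2, a receptor for class 6 semaphorins, at 97.6 to 143 CPM over 3 sets, and the 2 sets each of Pdx1-Cre;Rosa-RFP+ and Ngn3-Cre;Rosa-RFP+ cells had 51.6 to 54.8 CPM and 22.3 to 42.6 CPM. Sema3f was at 34.9 to 58.6 CPM in the Ptf1a-CreER, at 13.9 to 33.3 CPM in the Pdx1-Cre and at 14.1 to 25.3 CPM in the Ngn3-Cre sets. Both genes were thus higher in every Ptf1a-CreER set than in every set of the other lineages. Epha4 had the opposite order, with overlap between neighbours, at 0.309 to 8.89 CPM in Ptf1a-CreER, 7.52 to 13.7 CPM in Pdx1-Cre and 13.48 to 84.67 CPM in Ngn3-Cre sets. Of the 44 Ngn3-Cre cells 6 held mesenchyme markers, of the cells of the other lineages 0, and the set with Epha4 at 84.67 CPM had 1112 CPM of the mesenchyme markers, against 49.5 CPM in the other. The 2 Ngn3-Cre sets also differed in Neurog3, at 356 and 6.03 CPM, and in Gcg, at 6992 and 19380 CPM.

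In Sox9-CreER;Rosa-RFP+ cells, Sema3c was at 26.4 and 69.9 CPM in the sets of E16.5 and at 76.4 and 209 CPM at E17.5, where its group mean was 143 CPM. Sema6a, at 77.0 ± 10.7 CPM at E16.5 and 99.6 ± 10.6 CPM at E17.5, was steadier between sets. Slit2 was at 13.97 and 44.87 CPM in the E16.5 sets and was found at 10 CPM or more in 2 of the 55 cells, and it had 0 reads in the E17.5 sets.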
